A study of Mus musculus with 22 samples.

Results

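The muscle contractile and myogenic genes are 36 genes that were picked by symbol, out of 18194 genes measured on the arrays, because some of them were higher in Chd7 mutant arrays. They hold 34 genes of skeletal and cardiac muscle and the pair of smooth muscle genes Acta2 and Tagln. All 36 had a probe set, and each gene is given by the probe set with the highest mean log2 signal over all 22 arrays. The comparison that chose them, Chd7 mutant against control, is therefore described here with no test, and only ICRF-193 against DMSO and Smo2 against its control were tested.

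The 22 samples were cultures of cerebellar granule cells, labelled as granule neuron progenitors of strain C56Bl6/J, from pups of postnatal day 7. Their titles call all of them CGNs, which is the study's name for postmitotic granule neurons. The control group had 4 wild type arrays and the Chd7 mutant group had 4 arrays labelled by that genotype alone. The mutant animals of the study carry floxed Chd7 deleted by Atoh1-Cre, which acts in the granule lineage, and the sex of the pups was not taken into account. In the treated cultures 4 arrays had received ICRF193 (the topoisomerase inhibitor ICRF-193) at 10 µM for 12 h and 4 had received DMSO, and 3 arrays of cells cultured with Smo2 stood against 3 labelled as its control. The labels do not say what Smo2 is. For proliferating cultures the study used a Smoothened agonist, which turns on hedgehog signalling. All samples are called biological replicates and nothing says whether they came from separate animals or cultures, so p-values measure only the spread between these samples, which may be technical.

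Skeletal muscle fibres shorten as myosin thick filaments slide along actin thin filaments inside the sarcomere. Calcium released from the sarcoplasmic reticulum binds troponin and uncovers the actin filament. Myf5, Myod1, Myog and Myf6 are the myogenic basic helix-loop-helix transcription factors, which bind E boxes in the promoters and enhancers of muscle genes and commit cells to the muscle fate. Serum response factor binds the CArG box of actin and other contractile genes in striated and smooth muscle alike. The cerebellum holds no skeletal muscle, while Acta2 and Tagln are made by the smooth muscle cells and pericytes of its vessels.

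The promoters of 5 members that the values below turn on are shown first, as the 250 bases before the RefSeq transcription start in GRCm38.p6, read 5′ to 3′ on the gene's strand. Myog is the myogenic factor that was higher in both mutant and Smo2 arrays, Actc1 and Acta1 are the sarcomeric actins, Myh3 is the embryonic myosin heavy chain, and Actn2 is the member that fell with ICRF-193. Capitals mark E boxes (CANNTG, which reads the same on both strands in its fixed letters) and CArG boxes.
Myog, chr1:134289754-134290003, plus strand: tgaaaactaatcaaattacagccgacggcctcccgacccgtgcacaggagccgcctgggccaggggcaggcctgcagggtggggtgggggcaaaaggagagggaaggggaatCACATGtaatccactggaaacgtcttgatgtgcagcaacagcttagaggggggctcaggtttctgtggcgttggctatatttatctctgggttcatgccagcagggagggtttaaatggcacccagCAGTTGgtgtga
Actc1, chr2:114052876-114053125, minus strand: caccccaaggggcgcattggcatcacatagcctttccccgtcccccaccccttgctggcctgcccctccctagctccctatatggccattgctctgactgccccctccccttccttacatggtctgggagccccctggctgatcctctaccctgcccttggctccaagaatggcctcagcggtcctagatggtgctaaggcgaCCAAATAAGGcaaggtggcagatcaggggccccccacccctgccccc
Acta1, chr8:123894776-123895025, minus strand: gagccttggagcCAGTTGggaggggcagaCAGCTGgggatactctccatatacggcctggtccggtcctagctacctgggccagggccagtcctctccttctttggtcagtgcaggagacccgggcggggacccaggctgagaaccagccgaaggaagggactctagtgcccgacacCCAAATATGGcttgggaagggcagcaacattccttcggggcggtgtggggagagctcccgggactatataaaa
Myh3, chr11:67078050-67078299, plus strand: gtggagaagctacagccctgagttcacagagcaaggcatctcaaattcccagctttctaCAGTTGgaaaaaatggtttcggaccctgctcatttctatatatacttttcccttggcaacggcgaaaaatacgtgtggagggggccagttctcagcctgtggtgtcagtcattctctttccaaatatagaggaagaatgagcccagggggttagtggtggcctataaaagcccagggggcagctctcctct
Actn2, chr13:12340733-12340982, minus strand: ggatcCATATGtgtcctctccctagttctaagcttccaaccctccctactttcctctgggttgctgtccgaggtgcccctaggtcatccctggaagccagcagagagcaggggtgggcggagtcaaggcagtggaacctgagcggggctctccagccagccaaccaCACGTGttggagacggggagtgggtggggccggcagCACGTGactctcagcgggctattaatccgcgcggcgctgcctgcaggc

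The table of promoters held 33 entries for 29 of the 36 members and none for Neb, Tnnt3, Tagln, Chrnd, Myod1, Myf6 and Tnni2. The E box CANNTG stood in 28 of the 33 entries (84.8%), against 66.2% of all 32851 promoters of the same length. The narrower E box CAGCTG, which is one form of CANNTG and is counted in it, stood in 17 of 33 (51.5%) against 13% of all promoters. Its 15 members were Acta1, Acta2, Cav3, Chrna1, Chrng, Ckm, Des, Mb, Mybpc1, Myh4, Myl1, Mylpf, Tnni1, Tnnt2 and Tpm2. A CArG box stood in 3 entries (9.09%), those of Acta1, Actc1 and Myh4, against 1.47% of all promoters. In the sequences shown, Myog had 2 E boxes of other letters than CAGCTG and Actc1 had a CArG box and no E box. These matches describe letters in the window and no binding was measured.

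Signals were low for most members. A deposited signal at or below 16, a log2 value of 4, was set to that floor, and 27 of the 36 members had at least 1 array there. A difference from a lower group with floored arrays is a lower limit and is written as that value "or more", and where both groups have floored arrays it is neither a measurement nor a limit. The 6 members Mylpf, Tpm2, Actc1, Tnnc1, Acta1 and Acta2 averaged 6.44 or more over the 22 arrays, 6.44 being the middle of all probe set means, and a mean that 1 high group lifts favours members that differ. All values are log2 signals after quantile normalization, given in the order of the replicate numbers, and precision is limited by how many arrays there were, since intensities give no counts.

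**Figure D1:**
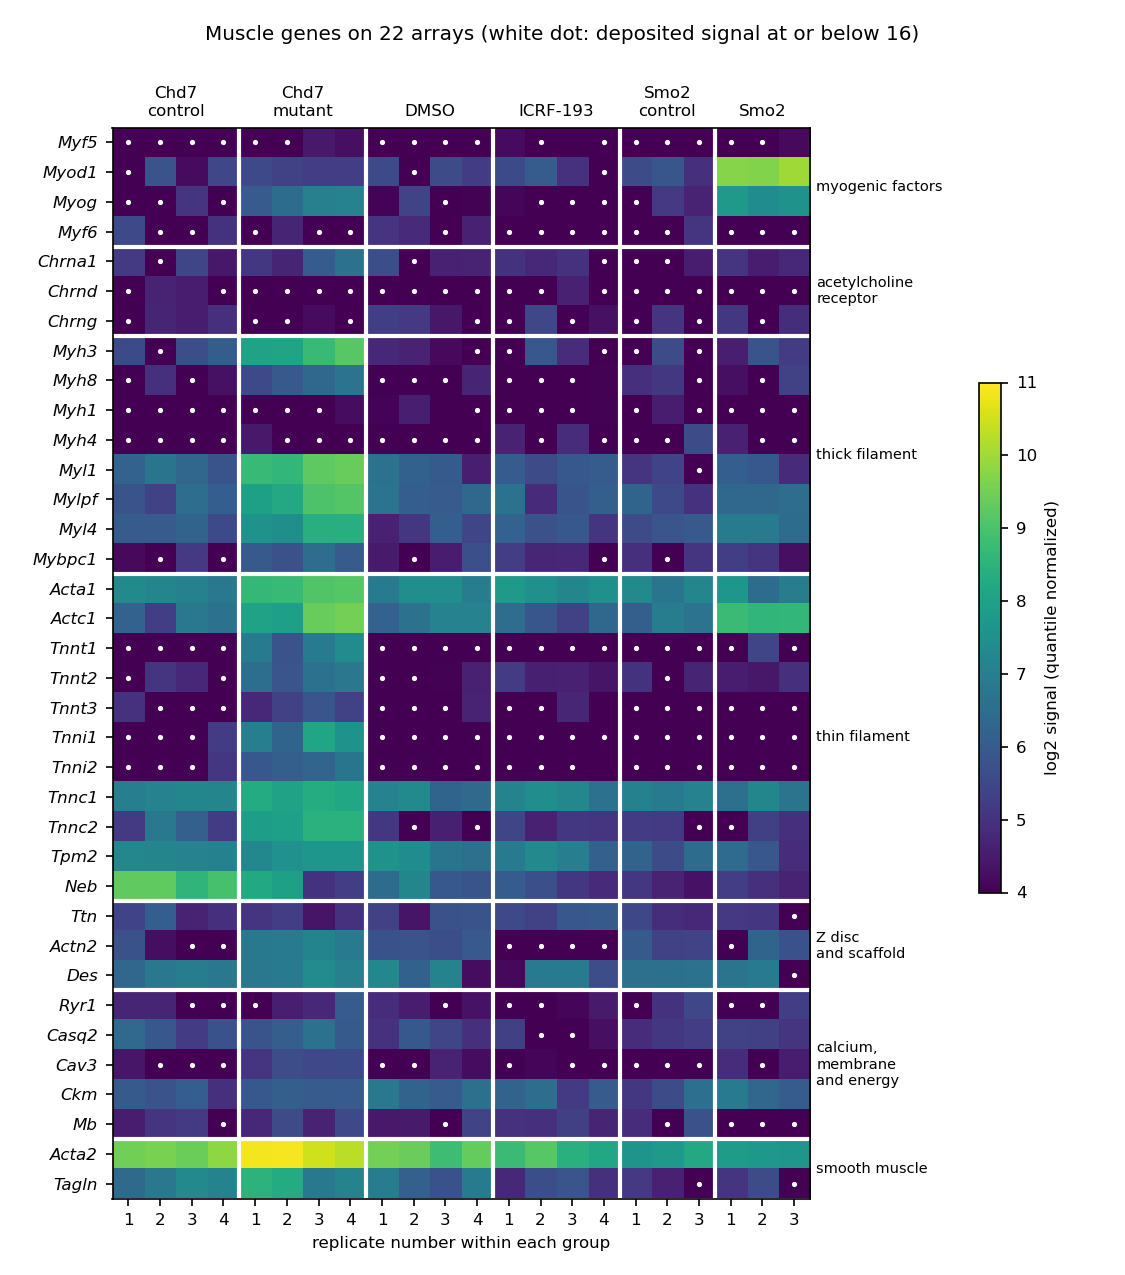
Log2 signal of each of the 36 genes (rows, grouped by role) on each of the 22 arrays (columns, by group and replicate number), with a white dot where the deposited signal was at or below 16. The Chd7 mutant columns are brighter than their control columns in most thick and thin filament genes, Neb is darker there, and Myod1 and Myog are bright in the Smo2 columns.

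The labels were first set against the genes that define them. Granule cell markers had a mean log2 signal of 11.28 to 11.95 over the 22 arrays. One Chd7 probe set had 11.27 to 11.72 on the control and 8.99 to 9.98 on the mutant arrays, and the brighter one had 11.74 to 12.01 and 11.37 to 11.86, with their place relative to the deleted exons unknown here. Within the Chd7 and the ICRF-193 comparison, replicates 1 and 2 of both groups resembled each other, as did replicates 3 and 4, and the labels give no reason for these sets. The 3 measured Y-linked genes had a mean of 8.38 to 9.03 on the control arrays, of 6.81 and 6.95 on mutant replicates 1 and 2, and of 4.23 and 4.00 on mutant replicates 3 and 4, so Y-linked signal moved with genotype and with the set.

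In the Chd7 mutant arrays most contractile members were higher. Of the 36 members 19 had every mutant array above every control array, where 7.51% of all 18194 genes did, and 1 had every mutant array below, where 5.96% of all genes did. The 19 were 12 with a floor of 64 in place of 16, where the share of all genes was not counted. These counts restate how the members were picked. The median difference was 1.08 over the members and 0.00 over all genes, and 31 of the 36 differences were above 0. By role the 19 were 6 of 8 thick filament genes, 9 of 11 thin filament genes, 1 of 4 myogenic factors, 1 of 3 genes of the Z disc and scaffold, 1 of 5 genes of calcium handling, membrane and energy, 0 of 3 acetylcholine receptor subunits and 1 of the pair of smooth muscle genes. More muscle cells and more muscle RNA per cell cannot be told apart in such bulk samples.

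**Figure D2:**
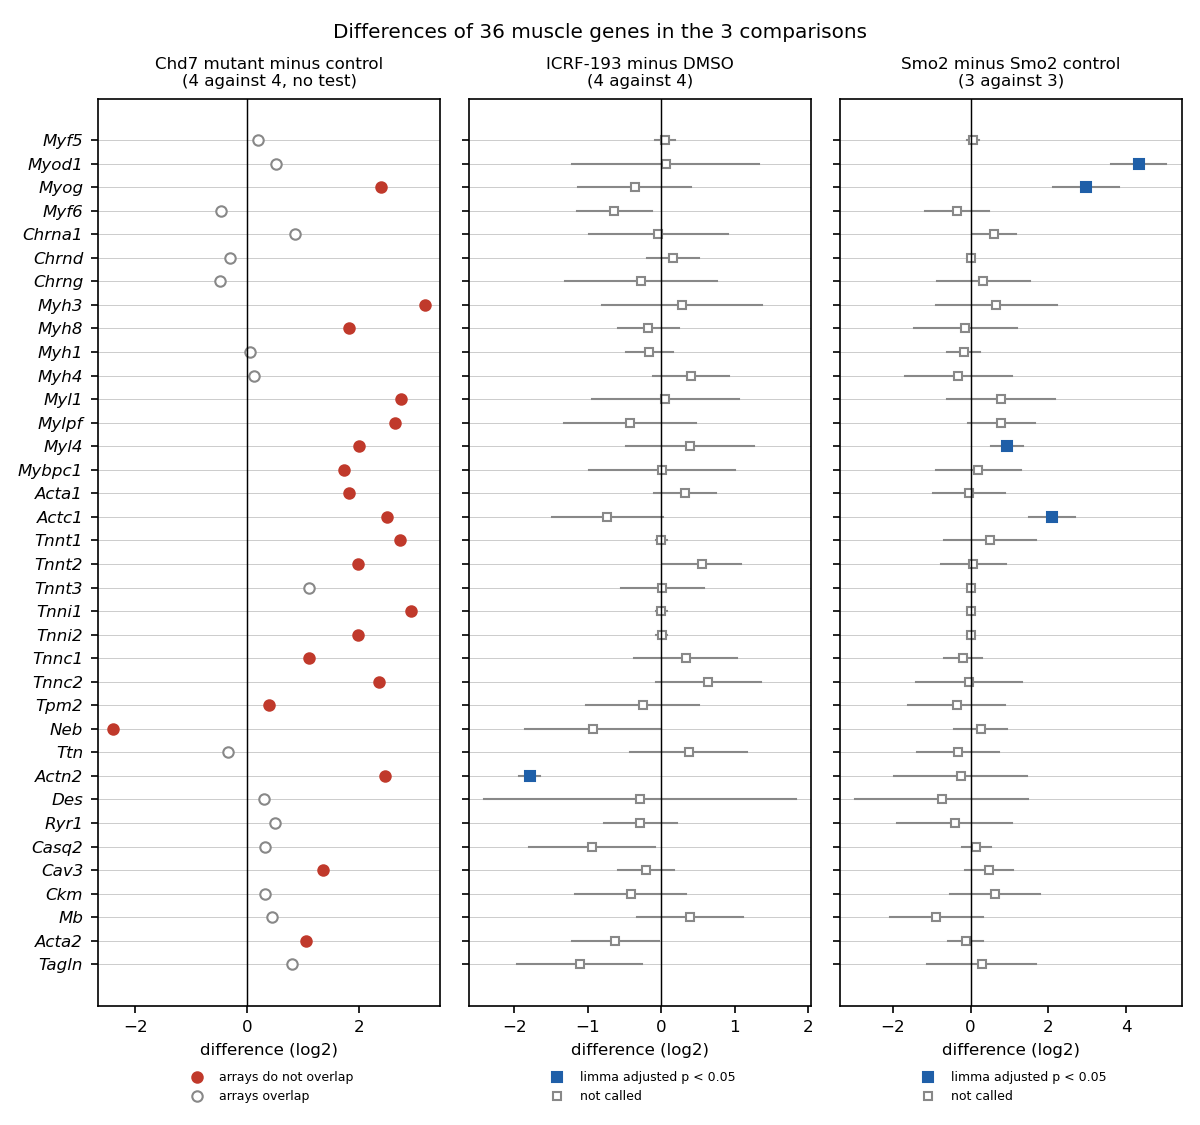
Difference between group means (log2) of each gene in Chd7 mutant against control (left, no test and no error bar), ICRF-193 against DMSO (middle) and Smo2 against its control (right), with 95% confidence intervals from limma in the last pair. On the left 19 red points lie to the right of 0 and 1, Neb, to the left, while 1 point in the middle (Actn2) and 4 on the right (Myod1, Myog, Myl4, Actc1) are filled as called.

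Among the myogenic factors, Myog, which drives the fusion of myoblasts into fibres, was the one that did not overlap. Myog was at the floor on control replicates 1, 2 and 4 and at 5.05 on replicate 3, and the mutant arrays had 6.00, 6.47, 7.06 and 7.10. Its mean was therefore higher by 2.40 or more in the mutant. Myod1, which acts before Myog in muscle commitment, had 4.00 (floor), 5.78, 4.21 and 5.49 on the control and 5.54, 5.37, 5.31 and 5.27 on the mutant arrays, so the groups overlapped and differed by 0.50 or more. Myf5, active in early muscle precursors, was at the floor on all 4 control arrays and at 4.48 and 4.28 on mutant replicates 3 and 4, and Myf6, found in mature fibres, was at the floor on 3 of 4 mutant arrays.

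The subunits of the acetylcholine receptor at the junction of nerve and muscle did not separate the groups. Chrna1, the subunit that binds acetylcholine, was higher by 0.85 or more, with mutant replicates 3 and 4 at 6.03 and 6.64 and replicates 1 and 2 (5.12 and 4.73) within the control range of 4.00 to 5.45. Chrng, the fetal subunit, and Chrnd were at the floor on 3 and 4 of the 4 mutant arrays.

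Among the myosin heavy chains of the thick filament, the embryonic and perinatal ones were higher and the adult fast ones were near the floor. Myh3, the embryonic chain, had the largest measured difference, though several others are lower limits, so the order of the largest cannot be told. It had 5.57, 4.00 (floor), 5.69 and 6.07 on the control arrays and 8.03, 8.09, 8.72 and 9.18 on the mutant arrays, a difference of 3.17 or more. Myh8, the perinatal heavy chain, was higher by 1.82 or more. Myh1 and Myh4, the adult fast heavy chains, lie between Myh3 and Myh8 on chromosome 11, and both were at the floor on all 4 control and on 3 of 4 mutant arrays.

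The myosin light chains among the members separated the groups on every array. Myl1, an alkali light chain, had 6.20, 6.73, 6.30 and 5.82 on the control and 8.74, 8.63, 9.27 and 9.38 on the mutant arrays, a difference of 2.74 or 6.69-fold. Mylpf, the regulatory light chain of fast fibres, had 5.83, 5.39, 6.49 and 6.10 against 7.97, 8.23, 9.06 and 9.12, a difference of 2.64. Myl4, the light chain of embryonic muscle and the atrium, had 6.04, 6.01, 6.26 and 5.57 against 7.57, 7.49, 8.39 and 8.40, a difference of 2.00. No control array reached the lowest mutant array in Myl1, Mylpf or Myl4. A dimmer Myl4 probe set, at the floor on 14 of 22 arrays, was not higher in the mutant (4.00 against 4.48, with overlap). The light chains Myl2, Myl3, Myl7 and Myl6b, which are not members, overlapped as well. Their differences were -0.06 to 0.16, with Myl7 at the floor on every array of both genotypes. Mybpc1, which binds myosin in slow fibres, was higher by 1.72 or more.

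The thin filament showed the same order of groups in both of its sarcomeric actins. Actc1, cardiac actin and the actin of embryonic skeletal muscle, had 6.19, 5.31, 6.79 and 6.63 on the control and 8.03, 7.95, 9.38 and 9.53 on the mutant arrays, a difference of 2.49. Acta1, the actin of mature skeletal muscle, had 7.36, 7.18, 7.07 and 6.80 against 8.65, 8.73, 9.11 and 9.17, a difference of 1.81. The mutant arrays of replicates 3 and 4 were above those of replicates 1 and 2 in both.

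Among the troponins that are members, which set the response of the filament to calcium, 6 of 7 did not overlap. Of all genes 7.51% were higher without overlap. Tnni3, a troponin outside the members, was at the floor on 3 of 4 arrays in both genotypes. Tnni1, the inhibitory subunit of slow and embryonic fibres, was at the floor on control replicates 1, 2 and 3 and at 5.23 on replicate 4, and had 6.99, 6.26, 8.12 and 7.58 on the mutant arrays, a difference of 2.93 or more. Tnnt1, the tropomyosin-binding subunit of slow fibres, was at the floor on all 4 control arrays and had 6.89, 5.78, 6.90 and 7.37 on the mutant arrays, 2.73 or more. Tnnt2, its cardiac and embryonic counterpart, had 4.00 (floor), 5.07, 4.80 and 4.00 (floor) against 6.52, 5.85, 6.63 and 6.78, or 1.98 or more. The calcium-binding subunits Tnnc2 (2.35) and Tnnc1 (1.10) and the fast inhibitory subunit Tnni2 (1.99 or more) were higher too, while Tnnt3 of fast fibres overlapped through 1 control array (1.10 or more). Tpm2, a tropomyosin, differed by 0.38, and its other probe sets differed by 0.04 to 1.94.

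Neb, the nebulin gene whose protein spans the thin filament, went the other way and was the single member lower without overlap. The control arrays had 9.30, 9.29, 8.57 and 8.97, and the mutant arrays had 8.26, 7.97, 5.03 and 5.29. The mutant mean was lower by 2.39, with a difference of -1.18 in replicates 1 and 2 and of -3.61 in replicates 3 and 4. It was singled out for its direction after its values were seen. Neb also had its highest values of any group in the Chd7 controls, since the DMSO arrays had 5.81 to 7.20 and the Smo2 control arrays 4.33 to 5.12.

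In the Z disc, Actn2, the actinin that anchors thin filaments, had 5.73, 4.25 and 2 arrays at the floor in the control and 6.84, 6.92, 7.15 and 6.88 in the mutant, a difference of 2.46 or more. All 4 mutant arrays lay above the highest control array. The Chd7 controls other than the one at 5.73 were below the other control groups, since the DMSO arrays had 5.67 to 5.95 and the Smo2 control arrays 5.38 to 5.97. Ttn, the gene of the giant spring protein titin, was lower by 0.34 with overlap. Its other probe sets differed by -0.37 to 0.97, and the largest differences, 0.97 and 0.77, were higher in the mutant, also with overlap. Des, the intermediate filament desmin of all muscle types, differed by 0.30.

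Most genes of mature fibre function overlapped. Ckm, the muscle creatine kinase, had 5.98, 5.80, 6.08 and 4.94 on the control and 5.93, 6.13, 6.01 and 6.00 on the mutant arrays, a difference of 0.32 with overlap. Mb (myoglobin), Casq2 (a calcium store protein) and Ryr1 (the calcium release channel) overlapped as well, with differences of 0.32 to 0.49, in which Mb and Ryr1 have floored arrays. Cav3, the caveolin of muscle membranes, was higher by 1.35 or more without overlap.

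The smooth muscle genes had another order among the mutant replicates. Acta2, smooth muscle actin, had 9.51, 9.59, 9.41 and 9.80 on the control and 10.88, 10.89, 10.50 and 10.28 on the mutant arrays, a difference of 1.06. Tagln, transgelin of the same cells, had 6.43, 6.78, 7.29 and 7.12 against 8.54, 8.32, 6.82 and 7.13, so it was higher in mutant replicates 1 and 2 and within the control range in replicates 3 and 4. Of the 19 members without overlap, Acta2 was the one whose mutant replicates 3 and 4 lay below replicates 1 and 2, and 15 had replicates 3 and 4 above. Over all genes 24.4% had replicates 3 and 4 above and 25.2% had them below. The difference was larger in replicates 3 and 4 than in replicates 1 and 2 for 14 of the 19. This was not counted over all genes, so whether 14 of 19 is unusual cannot be told.

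**Figure D3:**
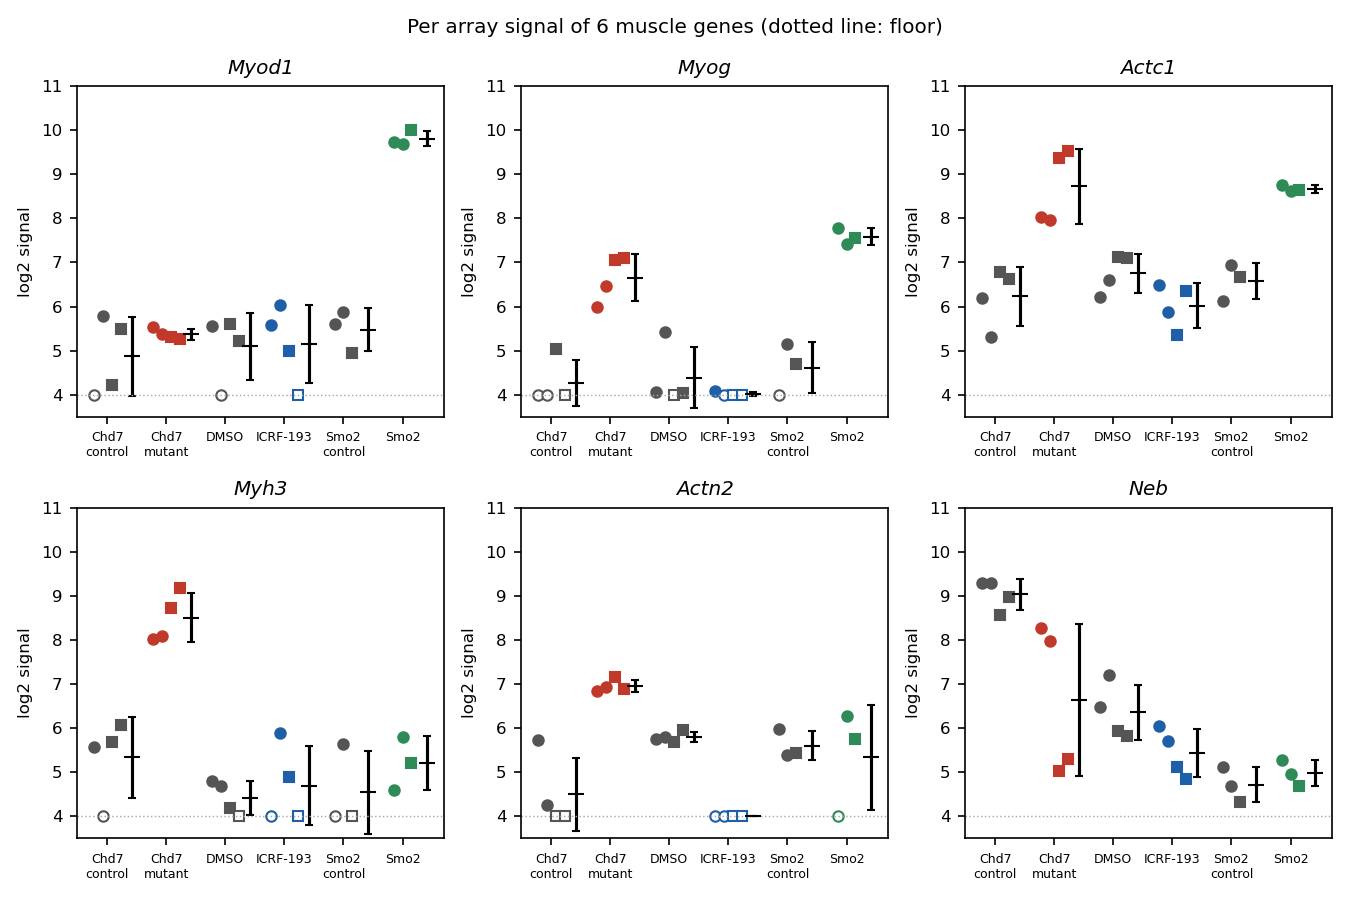
Log2 signal of 6 genes on each array of the 6 groups, with circles for replicates 1 and 2, squares for later replicates, open symbols at the floor (dotted line) and a dash with bars for the group mean ± SD. Myod1 and Myog stand at 7.42 or above on all 3 Smo2 arrays, Actn2 is at the floor on all 4 ICRF-193 arrays, and Neb splits into 8.26 and 7.97 against 5.03 and 5.29 in the mutant.

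Taken as means over the 34 skeletal genes, the control arrays had 5.13 to 5.22 and the mutant arrays 6.14, 6.18, 6.46 and 6.54, while the arrays of the other groups had 4.76 to 5.35. Other cells' markers differed in mean between the genotypes as well. For the counts below, 7.51% of all genes were higher and 5.96% lower without overlap, and 1 gene of 8 (12.5%) is near these shares. The 10 fibroblast and meningeal markers were all higher on average in the mutant, 2 of them without overlap (Dcn by 1.50 and Pdgfra by 1.02), with a list mean of 8.16, 8.25, 9.03 and 9.08 on the control and 8.96, 9.04, 10.01 and 9.98 on the mutant arrays. In both genotypes this list mean was higher on replicates 3 and 4 than on replicates 1 and 2. Granule markers had 11.65 to 11.74 on the control and 11.32 to 11.64 on the mutant arrays, and 0 of 10 were higher and 4 lower without overlap. Of 7 oligodendrocyte markers 3 were higher without overlap (Olig1 by 1.11, Mbp by 1.26 and Cnp by 1.52), with list means of 7.51 to 8.80 against 8.56 to 9.45. The 8 astrocyte and Bergmann glia markers were all higher on average, 1 without overlap (Gja1 by 0.86), with list means of 9.35 to 10.29 against 9.88 to 11.30. Of 8 microglia markers 7 were lower on average, with a median of -0.87 and 1 without overlap (Fcer1g), and their means were 7.39 to 9.12 against 6.24 to 8.77. Of 8 pericyte and vessel markers 1 was higher without overlap (Pdgfrb by 0.81), with list means of 5.99 to 6.85 against 6.18 to 6.77. The 6 cartilage and bone markers overlapped, with list means of 5.54 to 5.92 against 5.75 to 6.09, and so did the 8 endothelial markers. Of 5 interneuron markers Pvalb was higher without overlap (1.19), and of 4 neural crest and Schwann cell markers Pmp22 was (0.40). Of 4 Purkinje cell markers Pcp4 was lower without overlap (-0.98). The part of the fibroblast and glial signal and of the Y-linked difference in the muscle gene differences was not tested.

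**Figure D4:**
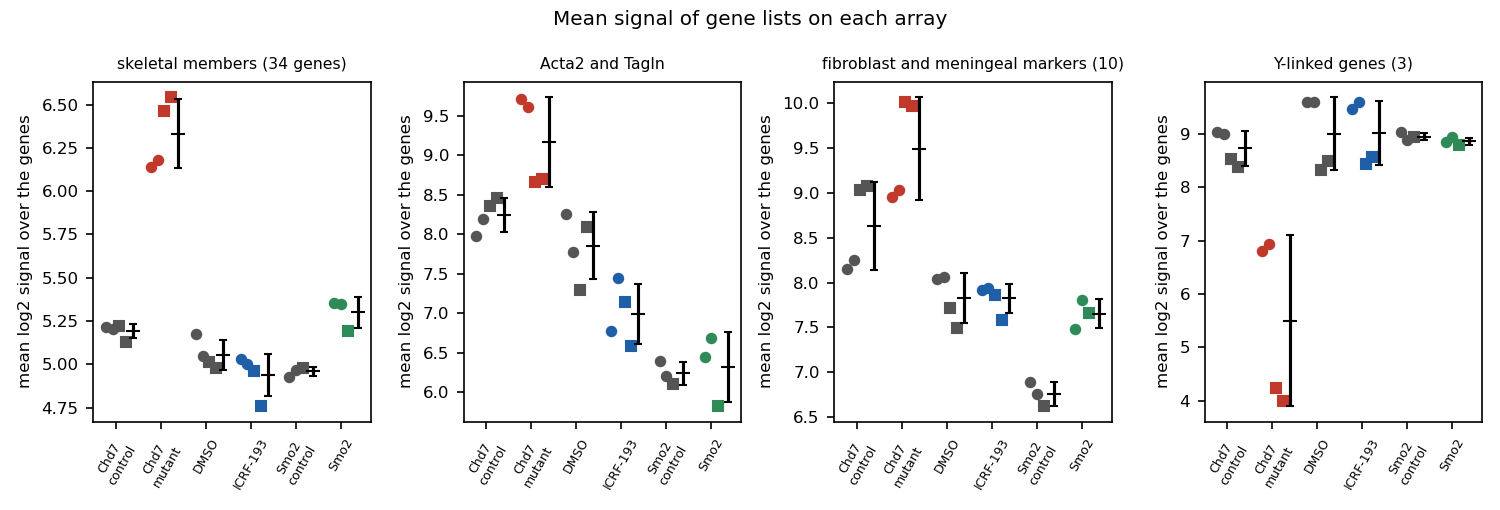
Mean log2 signal over the genes of 4 lists on each array (circles for replicates 1 and 2, squares for later replicates), with a dash and bars for the group mean ± SD. The skeletal list stands above 6 on the 4 mutant arrays only, the smooth muscle pair and the fibroblast list have higher group means there, and the Y-linked genes are lower.

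Other muscle genes, listed apart from the members, were counted in the same way. Of 66 measured genes of the sarcomere, calcium store and muscle metabolism, 7 were higher (10.6%) and 2 lower (3.03%) without overlap in the mutant, where 7.51% and 5.96% of all genes were, so both shares were near the background. Their median difference was 0.13, and their list mean was 5.40 to 5.49 on the control and 5.61 to 5.77 on the mutant arrays. Csrp3, a Z disc sensor of stretch, was higher by 1.71 or more, Myom2, which crosslinks the M band, by 1.70 or more with all 4 controls at the floor, Cryab, a chaperone also made by glia, by 1.43, and Smpx by 0.94 or more. Jph1 (-0.56) and Dmd (-0.47), the dystrophin gene, were lower. Of 16 other genes of the myogenic lineage and the neuromuscular junction, Dok7 alone was higher (0.72), a share of 6.25% that is also near the background, and 0 were lower. Of 13 other smooth muscle genes, 4 were higher (30.8%), Cnn2 by 0.96, Myocd by 0.83 or more, Mylk by 0.80 and Cald1 by 0.58, and Srf was lower by 0.17.

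ICRF-193, which traps type II topoisomerases in an inactive state, was compared with DMSO to ask which of these genes depend on topoisomerase activity. Actn2 fell, and it was the single member called. It had 5.75, 5.79, 5.67 and 5.95 on the DMSO arrays and was at the floor on all 4 ICRF-193 arrays, so it fell by 1.79 or more (limma adjusted p = 4.18e-05 over 18194 genes). An exact permutation test of its 70 arrangements gave p = 0.0286, the smallest it allows. All 4 floored arrays have the same value, so the error of this difference rests on the DMSO arrays alone, and with a floor of 64 in place of 16 it was no longer called (adjusted p = 0.845). Of all genes, 1.63% fell and 1.35% rose, and of the members 1 fell (2.78%) and 0 rose. At an unadjusted p under 0.05 limma had 6 of the 36 members lower (16.7%) and 1 higher (2.78%), where 6.86% and 7.67% of all genes were. The methods' t-test at that threshold had 3 of the 36 lower and 0 higher, where 6.19% and 7.19% of all genes were, so 3 is near the background.

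The other members gave no call with ICRF-193. The median difference was -0.02 over the members and 0.00 over all genes. Actc1, with 6.21, 6.60, 7.12 and 7.10 on the DMSO and 6.50, 5.87, 5.36 and 6.36 on the ICRF-193 arrays, had a difference of -0.73 (95% confidence interval -1.48 to 0.02, limma adjusted p = 0.356). Tagln had 6.96, 6.15, 5.78 and 6.85 against 4.80, 5.70, 5.84 and 4.96, a difference of -1.11 (limma adjusted p = 0.206), and Acta2 had 9.54, 9.39, 8.82 and 9.34 against 8.76, 9.19, 8.44 and 8.20, or -0.63 (adjusted p = 0.312). Neb, at 6.47, 7.20, 5.94 and 5.81 against 6.04, 5.70, 5.13 and 4.84, had -0.93 (adjusted p = 0.341), and its lowest DMSO arrays overlapped the ICRF-193 arrays. Neb was called lower when the replicate sets were a block. Myog was at the floor on 3 ICRF-193 arrays, at 4.09 on the other, and at 4.07, 5.42, 4.00 and 4.04 on the DMSO arrays. Tnnt1 and Tnni1, among the largest differences in the mutant, were at the floor on all 8 arrays.

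In 8 further members the DMSO and ICRF-193 arrays overlapped. Acta1 had 6.88, 7.44, 7.43 and 6.97 on the DMSO and 7.78, 7.51, 7.20 and 7.52 on the ICRF-193 arrays, a difference of 0.32. Mylpf had 6.68, 6.10, 6.02 and 6.33 against 6.64, 4.84, 5.81 and 6.13, or -0.43. Ckm had 6.81, 6.22, 6.00 and 6.59 against 6.24, 6.52, 5.19 and 6.02, or -0.42. Of these 3, Mylpf was lowest on ICRF-193 replicate 2. Myl1 had 6.64, 6.19, 5.98 and 4.59 against 6.03, 5.62, 5.92 and 6.03 (0.05), and Myl4 had 4.64, 5.14, 6.11 and 5.45 against 6.21, 5.73, 5.92 and 5.05 (0.39). Of these light chains, Myl1 was lowest on DMSO replicate 4. Myh3 had 4.80, 4.68, 4.18 and 4.00 (floor) against 4.00 (floor), 5.90, 4.89 and 4.00 (floor), Tnnt2 had 4.00 (floor), 4.00 (floor), 4.04 and 4.64 against 5.23, 4.62, 4.66 and 4.40 (0.56 or more), and Myod1 had 5.57, 4.00 (floor), 5.61 and 5.21 against 5.58, 6.03, 5 and 4.00 (floor). These 3 had arrays at the floor. The limma adjusted p-values of these 8 genes were 0.315 to 1.

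Outside the members, Dmd fell by 1.53 with ICRF-193, from 8.74 ± 0.04 to 7.21 ± 0.20 (SD, n = 4, limma adjusted p = 0.000515). It was the one call among the 66 other sarcomere and muscle genes (1.52%), near the 1.63% of all genes that fell. Megf10, a receptor of muscle precursors that glia also make, fell by 1.48 (limma adjusted p = 0.0333) and was the one call among the 16 genes of the lineage and junction (6.25%). Of the 13 other smooth muscle genes limma called 0. At an unadjusted p under 0.05 it had 0 higher and 3 lower (23.1%), where 7.67% and 6.86% of all genes were.

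Smo2 against its control asks which genes differ between cultures with and without that agent. The myogenic factors Myod1 and Myog rose together, with cardiac actin and 1 myosin light chain. Myod1 had 5.61, 5.88 and 4.95 on the control and 9.73, 9.68 and 10.01 on the Smo2 arrays, and rose by 4.33, or 20.1-fold (95% confidence interval 3.62 to 5.03, limma adjusted p = 0.000327). Myog had 4.00 (floor), 5.15 and 4.69 against 7.78, 7.42 and 7.56, and rose by 2.97 or more (limma adjusted p = 0.00187). In both, every Smo2 array lay above every control array.

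Of the structural genes, Actc1 had 6.13, 6.94 and 6.67 on the control and 8.77, 8.61 and 8.63 on the Smo2 arrays, and rose by 2.09 (limma adjusted p = 0.00179). Myl4 had 5.60, 5.83 and 5.97 against 6.87, 6.85 and 6.47, and rose by 0.93 (limma adjusted p = 0.00829). The groups did not overlap in these 4 members, nor in Mylpf, which had 6.26, 5.56 and 5.02 against 6.34, 6.37 and 6.51 (0.79, adjusted p = 0.136). An exact permutation test of 3 against 3 cannot go below p = 0.1, which each of the 4 called members reached. So 4 of 36 members rose (11.1%) and 0 fell, against 18.2% and 21.7% of all genes, and at an unadjusted p under 0.05 limma had 5 higher and 0 lower, where 20.8% and 25.4% of all genes were. The share of members that rose was below that of all genes. With each array centred on its median instead, 4935 genes rose and 3062 fell, against 3306 and 3944 here.

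The other probe sets of Myod1 and Myl4 gave smaller differences. A dimmer Myod1 probe set, at the floor on 18 of 22 arrays, differed by 0.66, and a dimmer Myl4 probe set by 0.49, and neither passed in a limma fit of every probe set. Myl4 was not called by the mean of its probe sets (adjusted p = 0.109) nor when arrays were blocked by their number (adjusted p = 0.0587).

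Of the members with large differences in the mutant, Myog, Actc1 and Myl4 passed with Smo2. The members given next did not pass, and some of them, such as Ckm, Chrnd and Tagln, had overlapped in the mutant comparison. Myh3 had 4.00 (floor), 5.64 and 4.00 (floor) on the control and 4.59, 5.80 and 5.21 on the Smo2 arrays (0.66 or more, adjusted p = 0.479). Tnnt2 had 5.02, 4.00 (floor) and 4.71 against 4.52, 4.44 and 4.98, with overlap (0.07, adjusted p = 0.927). Tnni1, Tnni2, Tnnt3 and Chrnd were at the floor on all 6 arrays, and Tnnt1 was above it on 1 Smo2 array (5.48). Acta1 had 7.33, 6.73 and 7.18 against 7.67, 6.48 and 6.96 (-0.04, 95% confidence interval -0.97 to 0.89, limma adjusted p = 0.977). Myl1 had 5.06, 5.40 and 4.00 (floor) against 6.09, 5.92 and 4.82 (0.79 or more, adjusted p = 0.336), Ckm 5.14, 5.63 and 6.55 against 6.87, 6.31 and 6.03 (0.63, adjusted p = 0.354), and Actn2 5.97, 5.38 and 5.44 against 4.00 (floor), 6.27 and 5.76 (-0.26, adjusted p = 0.826). Acta2, at 7.62, 7.76 and 8.22 against 7.84, 7.73 and 7.65, and Tagln, at 5.17, 4.65 and 4.00 (floor) against 5.05, 5.63 and 4.00 (floor), overlapped as well. Whether a member's difference with Smo2 differs from that in the mutant was not tested.

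Of 16 other genes of the lineage and junction 3 rose (18.8%) and 5 fell (31.2%) with Smo2, where 18.2% and 21.7% of all genes did. Cdh15, the M-cadherin of muscle satellite cells that cerebellar granule cells also make, rose from 4.38 ± 0.26 to 8.57 ± 0.11 (SD, n = 3, limma adjusted p = 8.77e-05). Chrnb1, the beta subunit of the muscle acetylcholine receptor, rose by 2.35 or more (limma adjusted p = 0.000293), and Mef2c, a partner of the myogenic factors that neurons use too, by 0.42. Megf10 (-1.10), Mef2a (-0.84), Mef2d (-0.65), Dok7 (-0.52) and Itga7 (-0.43) fell. Of the 66 other sarcomere and muscle genes 5 rose (7.58%), a share below that of all genes, among them Sgca (2.04 or more, with all 3 controls at the floor), Cryab (1.28), Csrp3 (1.13 or more) and Klhl40 (0.76), and 4 fell (6.06%), Dmd (-0.72), Jph1 (-0.67), Eno3 (-0.61) and Fhl1 (-0.51). Of 13 other smooth muscle genes Smtn (2.75 or more), Tpm4 (1.00) and Cald1 (0.74) rose (23.1%) and 0 were called lower by limma (1 at an unadjusted p under 0.05).

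Many markers of other cells changed with Smo2, where 18.2% of all genes rose and 21.7% fell. The fibroblast and meningeal mean was 6.62 to 6.89 on the control and 7.49 to 7.81 on the Smo2 arrays, with 3 of 10 called higher (Fbln1 by 3.33, Pdgfra by 1.11 and Fn1 by 0.66) and Col1a1, Col1a2 and Col3a1 at differences of 0.01 to 0.21 (adjusted p of 0.604 to 0.99). Of 6 cartilage and bone markers Col9a1 (2.56) and Sox9 (1.94), both also made by glia, rose. Granule markers had 11.89 to 11.95 against 11.43 to 11.54, and 9 of 10 fell. Of 8 microglia markers 6 fell, and of 8 astrocyte and Bergmann glia markers 6 fell and 2 rose. Of 4 Purkinje cell markers 3 fell, and of 5 interneuron markers Gad1, Gad2 and Slc32a1 fell while Pvalb, which fast muscle fibres also make, rose by 3.85 or more with 2 control arrays at the floor. Of 7 oligodendrocyte markers 1 rose and 3 fell, and of 4 neural crest and Schwann cell markers Egr2 (2.32) and Pmp22 (1.43) rose and Sox10, which is in both lists, fell. The 10 genes that define skeletal muscle had a mean of 4.89 to 4.98 against 4.85 to 5.12, with 0 called by limma (0 also at an unadjusted p under 0.05). The part of these cells in the rise of the 4 members was not tested.

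The members varied together only loosely within groups. After each group's mean was taken away, their correlation with the mean of the skeletal genes over the 22 arrays ran from -0.47 (Neb) to 0.75 (Chrna1), with Tpm2 at 0.63, Myl4 at 0.53 and Acta2 at -0.01, and each skeletal gene is itself part of that mean. Genes outside the list were searched only where their mean log2 signal reached the middle of all probe set means. The 12 with the most similar pattern had correlations of 0.81 to 0.87. They were A630072M18Rik, Plppr5, Tbc1d7, Abat, H2-Ke6, Syn2, Fign, Ntrk3, Ampd2, Gm15663, Rph3al and Lyz1. None of them is a muscle gene of the lists, but most of those genes were too dim to be searched. Of the other sarcomere and muscle genes 12 of 66 were bright enough. So were 8 of 16 genes of the lineage and junction and 4 of 13 other smooth muscle genes. The absence of muscle genes from the 12 therefore says little. These arrays share replicate sets and normalization, so the values are a description.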

How the data were processed

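RNA of 22 samples was hybridised to Affymetrix Mouse Genome arrays. The authors deposited linear signal intensities of 45101 probe sets, and the sources used here do not name the summarisation or scaling. The mean after trimming 2% at each end was 500 on every array. From these intensities, values were floored at 16, taken to log2 and quantile normalized over all arrays, whose medians had ranged from 6.33 to 6.81, with 16.2% to 20.7% of probe sets at the floor. Of the probe sets 34958 carried 1 gene symbol (18194 genes, each by its brightest probe set), 932 several and 9211 none, and the last kinds were left out. No signal filter was used in the main comparisons. The correlations between arrays and the search for genes of similar pattern used the 10772 genes whose mean reached the middle of all probe set means. 0 of 231 pairs of arrays were identical.

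The members and the gene lists were chosen with earlier results of these data known. All 36 members are accounted for by role, with arrays given one by one for the first 6 of the list, Acta2, Tagln, Myog, Myod1, the 6 with the largest mutant difference and those called. ICRF-193 against DMSO and Smo2 against control were each fitted without a block (limma 3.58.1, R 4.3.3), two-sided, and genes were called at a Benjamini-Hochberg adjusted p under 0.05 over the 18194. Deviations from group means of arrays with the same replicate number correlated by 0.39 to 0.42 in the Chd7 and 0.28 to 0.41 in the ICRF-193 comparison, and by -0.01 to 0.04 with Smo2. Arrays of the other number of the same set correlated as much (0.38 to 0.44 and 0.30 to 0.35), so the correlations mark the sets of replicates 1 and 2 and of 3 and 4. Alternatives changed normalization, floor, filter, probe sets, block, variance model, test, threshold and the arrays used. Promoters came from RefSeq (GRCm38.p6). Plots used matplotlib 3.10.9 (Python 3.11.15).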

Additional observations from a re-analysis of the deposited data

Results flagged for a closer look

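Within groups of 4 arrays, 1 array stood far from the others in 24 of 129 sets of values, where about 1 in 20 (6.4) would be set apart by chance. In 17 of the 24 the other 3 arrays were at the floor, and in 0 were all 4 arrays above it. In the control group these were Myog on replicate 3 (5.05), Mybpc1 on replicate 3 (5.15), Tnnt3 on replicate 1 (5), Tnni1 on replicate 4 (5.23), Tnni2 on replicate 4 (5.10), Actn2 on replicate 1 (5.73), Cav3 on replicate 1 (4.42). The Chd7 mutant group had Myf6 on replicate 2 (4.72), Chrng on replicate 3 (4.21), Myh1 on replicate 4 (4.22), Myh4 on replicate 1 (4.49). Among DMSO arrays they were Myog on replicate 2 (5.42), Myh8 on replicate 4 (4.74), Myh1 on replicate 2 (4.59), Tnnt2 on replicate 4 (4.64), Tnnt3 on replicate 4 (4.71). The ICRF-193 arrays had Myf5 on replicate 1 (4.20), Myog on replicate 1 (4.09), Chrnd on replicate 3 (4.64), Myh8 on replicate 4 (4.03), Myh1 on replicate 4 (4.03), Tnnt3 on replicate 3 (4.74), Tnni2 on replicate 4 (4.02), Cav3 on replicate 2 (4.09). Each of these arrays was the highest of its group.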

How the results depend on the processing

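Actc1, Myog and Myod1 were called with Smo2 in each of 19, 18 and 18 alternatives that tested them (differences of 1.87 to 2.27, 1.59 to 3.24 and 2.49 to 4.53), and Myl4 in 16 of 18 (0.71 to 1.06, highest adjusted p = 0.109). Actn2 was called with ICRF-193 in 20 of 21 (-1.99 to -0.01, highest adjusted p = 0.845 at a floor of 64). The members called lower with ICRF-193 were 1, against 0 at a floor of 64, 0 with a filter on low values, where Actn2 was not tested, 2 with the replicate sets as a block (Neb and Actn2), 3 by the methods' t-test without adjustment (Myf6, Actn2 and Tagln), and 1 to 2 with 1 array left out (2 without DMSO replicate 3, which adds Myf6). Those higher with Smo2 were 4, against 9 with each array centred on its median, which moves floored arrays apart and turned the difference of Tnni1 from 0 to 0.18, against 1 with the filter, where Actc1 alone of the 4 was tested, and against 4 to 5 with 1 array left out. Those lower with Smo2 were 0, and 0 to 1 with 1 array left out (Tnnc1 without Smo2 replicate 2, Mb without control replicate 2).

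With the replicate number as a block 1 member was called lower and 0 higher with ICRF-193 (Actn2, adjusted p = 0.011), and 4 were called higher with Smo2, where Myl1 (adjusted p = 0.0379) took the place of Myl4 (adjusted p = 0.0587). With Smo2 the samples share only a number. The block changed no other call.

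In the mutant comparison, members above without overlap were 19, or 12 at a floor of 64 and 19 to 20 with 1 array left out. Those below were 1, or 2 with median centring, 3 within replicates 1 and 2, 2 within replicates 3 and 4, and 1 to 2 with 1 array left out (2 without control replicate 1). The shares of all genes in these settings were not counted. Groups of 2 against 2 arrays separate more easily than 4 against 4, so the counts within replicate sets cannot be read as more members. The mean difference of the skeletal genes was 1.14 over 34 genes and 1.69 over the 5 that pass the filter, and with Smo2 it was 0.34 and 0.46. Among 25 results that were not called, 3 of 499 settings gave a call, and 36 turned their sign while uncalled. Signals at the floor limit what these arrays can show for most members.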
